A study of Mus musculus with 20 samples.

Results

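The genes described here are 9 names tied to axon injury and regrowth, among them Atf3, Sox11, Smad1, Gap43, Basp1, Cap23, Sprr1a and Ecel1. Each was matched to the array probes that carry exactly that gene name. Of the 9 names, 8 were found among the 30222 gene names of the array, on 11 probes. Cap23 matched no probe, and the RefSeq gene table lists it as a synonym of Basp1. A filter on dim and uneven spots in all 20 samples was passed by 6 of the 8 genes, among 10355 gene names in all. Sprr1a passed it only within a condition.

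The study asked how the temporal pattern of nerve impulses alters transcription in sensory neurons. Dorsal root ganglion (DRG) neurons of NIH Swiss mouse embryos at day 13.5 were cultured in chambers for 3 to 4 weeks and stimulated with electrodes. Bursts of 18 action potentials came every 1 min (18/1) or bursts of 90 came every 5 min (90/5), so that the average number of impulses was equal, and lasted 2 or 5 hr. With the unstimulated neurons this gave 5 conditions of 4 samples each, read on 10 arrays that held a sample of the condition in Cy3 and another in Cy5. All groups were grown with nerve growth factor and with an inhibitor of dividing non-neuronal cells. The methods describe 5 pooled cultures per condition. The culture protocol in the labels names spinal cords as the source, whereas the samples are labelled DRG neurons. Samples of 18/1 5 hr and 90/5 2 hr are named by array and colour, because the labels do not say which colour held which replicate.

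When a peripheral axon is cut, the sensory neuron switches on a growth programme that neurons of the brain and spinal cord largely fail to start. Transcription factors such as ATF3, SOX11 and SMAD1 act early in that programme, and proteins of the growth cone such as GAP-43 and BASP1 (also known as CAP-23) carry out the outgrowth. Plating neurons from dissected ganglia itself cuts their axons, and cultured DRG neurons are known to express much of this programme.

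The arrays differed in ways that touch every result below. They lay on 3 slides: the first carried unstimulated and 18/1 2 hr samples (arrays 1 to 4), the second 18/1 5 hr (arrays 5 and 6) and 90/5 2 hr (arrays 7 and 8), and the third 90/5 5 hr (arrays 9 and 10). Slide and condition cannot be told apart in any comparison except 18/1 2 hr with unstimulated neurons and 90/5 2 hr with 18/1 5 hr. Spot signal over local background had a median of 5.55 to 10.4 in the samples at 18/1 5 hr and of 2.27 to 2.59 in unstimulated ones. Spots marked as non-uniform numbered 5319 to 14642 per sample at 18/1 5 hr, 45 to 6476 at 90/5 2 hr, and at most 85 in every other sample. The SD of the log2 difference between the arrays of a condition was 0.227 for unstimulated neurons and 0.255 for 18/1 2 hr, against 0.733 for 18/1 5 hr, 0.658 for 90/5 2 hr and 0.411 for 90/5 5 hr. Between arrays 5 and 6, both of 18/1 5 hr, 17.9% of the genes lay over 1 log2 unit apart, against 0.251% between the unstimulated arrays. With 2 arrays per condition, the number of arrays limits the precision, and the p-values measure the spread between these samples and arrays.

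Markers fit cultures of sensory neurons with other cells. Sensory neuron markers Prph and Nefl each read 1440 times background in unstimulated neurons, no exact level, because each was saturated in 12 of 20 samples. All 11 sensory neuron markers were well above background in all 20 samples. The same held for 6 of 8 Schwann and satellite cell markers (S100b, 1490 times, saturation not counted), whereas Erbb3 was well above background in 0 samples. It also held for 5 of 6 fibroblast markers (Col1a2, 190 times), 4 of 8 macrophage markers (Itgam, 314 times), 1 of 4 endothelial markers (Kdr, 38.4 times) and 1 of 4 keratinocyte markers (Lor, 6.09 times). None of the 6 motor neuron and spinal cord markers reached it in all 20 samples, but Aqp4 did in 19, Slc18a3 and Gfap in 16 each, Slc5a7 in 14, Chat in 7 and Mnx1 in 4. Slc18a3 was 4 times background in unstimulated neurons, and Aqp4 was 1.84 times there and 44.2 times at 18/1 5 hr. In bulk RNA, fewer cells of a type and less RNA per cell cannot be told apart.

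Levels below are normalized log2 signals, and a gene is called when its adjusted p is under 0.05. Of the 6 members tested, 3 were called at 18/1 5 hr against unstimulated neurons, all lower, where 44.4% of all genes were called and 29.5% were called lower. The members' median change was -1.05 on the log2 scale, against -0.23 for all genes. That median counts Gap43 (-0.32), whose spots at 18/1 5 hr were all saturated. Against 18/1 2 hr, 2 members were lower at 18/1 5 hr (44% of all genes called). At 5 hr, 2 members were higher with 90/5 than with 18/1 (45.4% called). Between 90/5 2 hr and 18/1 5 hr, 1 member was higher with 90/5 (12.9% called). The members' share of calls at 18/1 5 hr against unstimulated neurons was thus near that of all genes.

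In the other 6 comparisons limma called 0 of 6 members. All genes were called in 0.0193% of cases at 18/1 2 hr, in 6.97% at 90/5 2 hr and in 0.0676% at 90/5 5 hr against unstimulated neurons. The shares were 4.96% for 90/5 against 18/1 at 2 hr, 8.96% for 90/5 5 hr against 2 hr, and 0.0386% for 90/5 5 hr against 18/1 2 hr. At an unadjusted p under 0.05 the member counts were 1 at 90/5 5 hr against unstimulated neurons (Sox11) and 0 in the other 5. The test of the study's methods picked Sox11 in that comparison and Atf3 for 90/5 against 18/1 at 2 hr, and 0 members in the other 4. Within the first slide, 18/1 2 hr against unstimulated neurons gave a median member change of -0.05, Gap43 included.

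**Figure D1:**
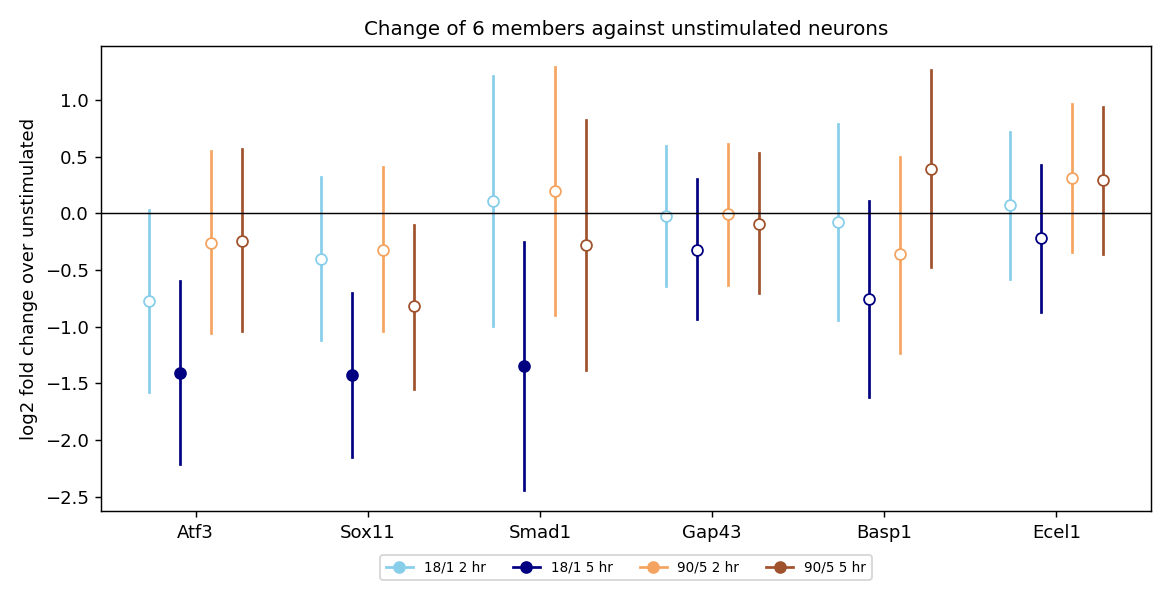
Log2 fold change over unstimulated neurons of the 6 members tested, with 95% confidence intervals from limma (4 samples per condition). Filled points are called at an adjusted p under 0.05: these are Atf3 (-1.41), Sox11 (-1.43) and Smad1 (-1.35), each at 18/1 5 hr. Gap43 rests on saturated spots.

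Atf3, a stress-induced bZIP transcription factor and the classic marker of an injured sensory neuron, was bright in every sample, at 51.8 to 420 times its background. In unstimulated replicates 1 to 4 its level was 14.14, 13.43, 12.52 and 13.23. At 18/1 2 hr it was 12.73, 12.28, 12.29 and 12.92 in replicates 1 to 4. The 18/1 5 hr samples gave 12.05 and 11.76 on array 5 and 11.90 and 11.99 on array 6, in Cy3 and Cy5. All 4 of these lay below every other sample of the study, and arrays 5 and 6 differed by 0.04 in their means. With 90/5 for 2 hr the level was 13.13 and 13.25 on array 7 and 12.91 and 12.99 on array 8, and at 90/5 5 hr it was 13.09, 13.28, 12.49 and 13.50 in replicates 1 to 4. Both 90/5 conditions overlapped the unstimulated samples and lay within their range but for replicate 3 at 5 hr, the lowest of them.

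The order of the Atf3 means was 13.33 ± 0.66 (SD, n = 4) in unstimulated neurons, 13.09 ± 0.43 with 90/5 for 5 hr, 13.07 ± 0.15 with 90/5 for 2 hr, 12.55 ± 0.32 with 18/1 for 2 hr and 11.92 ± 0.13 with 18/1 for 5 hr. The first 3 overlapped, and 18/1 2 hr overlapped unstimulated neurons, from which it differed by -0.77 (adjusted p = 1). Taken by replicate number, which these conditions share along with the colour, Atf3 was lower at 18/1 2 hr in 4 of 4 pairs (-1.40, -1.15, -0.23 and -0.31). With replicate number as a block the change was also -0.77 and not called (adjusted p = 0.276, over a range of 0.122 to 1 in the alternatives). Atf3 fell by 1.41 on the log2 scale, 2.65-fold, at 18/1 5 hr against unstimulated neurons (SE 0.39, adjusted p = 0.006). Relative to the median of all genes the change was -1.18. The call was lost without array 1, which held unstimulated replicates 1 and 2 (-0.95, adjusted p = 0.115), with no filter on dim spots (adjusted p = 0.0635), and by the test of the study's methods with or without adjustment. Adjusted p ran from 0.000167 to 0.115 over the alternatives. At 5 hr Atf3 was 1.17 higher with 90/5 than with 18/1 (adjusted p = 0.0182, with 4 of 4 samples above all of 18/1). That call was lost without 90/5 5 hr replicate 4 (0.96, adjusted p = 0.0863), array 9 (1.08, 0.101) or array 10 (1.26, 0.0515), with no filter (0.115) and by the adjusted methods' test (0.0672), over a range of 0.000847 to 0.115. From 18/1 2 hr to 5 hr the change of -0.63 was not called (adjusted p = 0.192), although the samples did not overlap. Against 90/5 2 hr, on the same slide as 18/1 5 hr, Atf3 was 1.15 higher with 90/5 and the samples did not overlap, but this was not called (adjusted p = 0.0534, and 0.317 fitted within that slide alone). It was called in 10 of 46 alternatives. Over all 46, p ran from 0.000834, unadjusted by the methods' test, to an adjusted p of 0.317.

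Promoters of RefSeq (GRCm38.p6) were at hand for 6 of the 8 genes. Those of the 3 transcription factors are shown because these genes were called lower together at 18/1 5 hr. Each is the 250 bases before the gene's start, read on the minus strand: chr1:191183334-191183583 for Atf3, chr12:27342719-27342968 for Sox11 and chr8:79399429-79399678 for Smad1. Capitals mark TTACGTCA, the binding sequence of ATF and CREB factors with a base changed.
Atf3: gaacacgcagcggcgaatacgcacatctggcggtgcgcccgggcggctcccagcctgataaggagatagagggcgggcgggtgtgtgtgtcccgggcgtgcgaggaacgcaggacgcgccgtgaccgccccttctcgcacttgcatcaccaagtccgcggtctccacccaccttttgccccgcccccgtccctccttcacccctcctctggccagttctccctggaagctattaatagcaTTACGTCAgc
Sox11: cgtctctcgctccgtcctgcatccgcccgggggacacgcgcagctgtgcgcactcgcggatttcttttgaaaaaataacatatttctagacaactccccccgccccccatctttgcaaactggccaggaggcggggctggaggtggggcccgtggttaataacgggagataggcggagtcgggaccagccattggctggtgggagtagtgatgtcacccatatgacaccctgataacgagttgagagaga
Smad1: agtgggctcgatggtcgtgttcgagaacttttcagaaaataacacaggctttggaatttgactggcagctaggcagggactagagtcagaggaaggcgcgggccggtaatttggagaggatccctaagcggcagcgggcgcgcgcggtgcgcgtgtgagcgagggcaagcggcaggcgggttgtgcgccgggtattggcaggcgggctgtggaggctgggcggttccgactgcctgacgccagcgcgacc

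On both strands, TTACGTCA is present in 0.447% of 32851 promoter windows of that length, and in Atf3 it spans bases 10 to 3 before the start. Its part ACGTCA is present in 6.47%. The full sequence TGACGTCA, in 1.55% of promoters, was in none of the 6 member windows. TGANTCA, the sequence bound by AP-1, is in 6.75% of promoters and among the members only in Sprr1a, at bases 146 to 140 and 116 to 110. A match describes the letters only, and the Sox11 and Smad1 windows hold none of the 4 searched. Of the forms of TGACGTCA with a base changed, only TTACGTCA was searched. The Sox11 window holds TGATGTCA and the Smad1 window TGACGCCA, which also differ from TGACGTCA by a base.

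**Figure D2:**
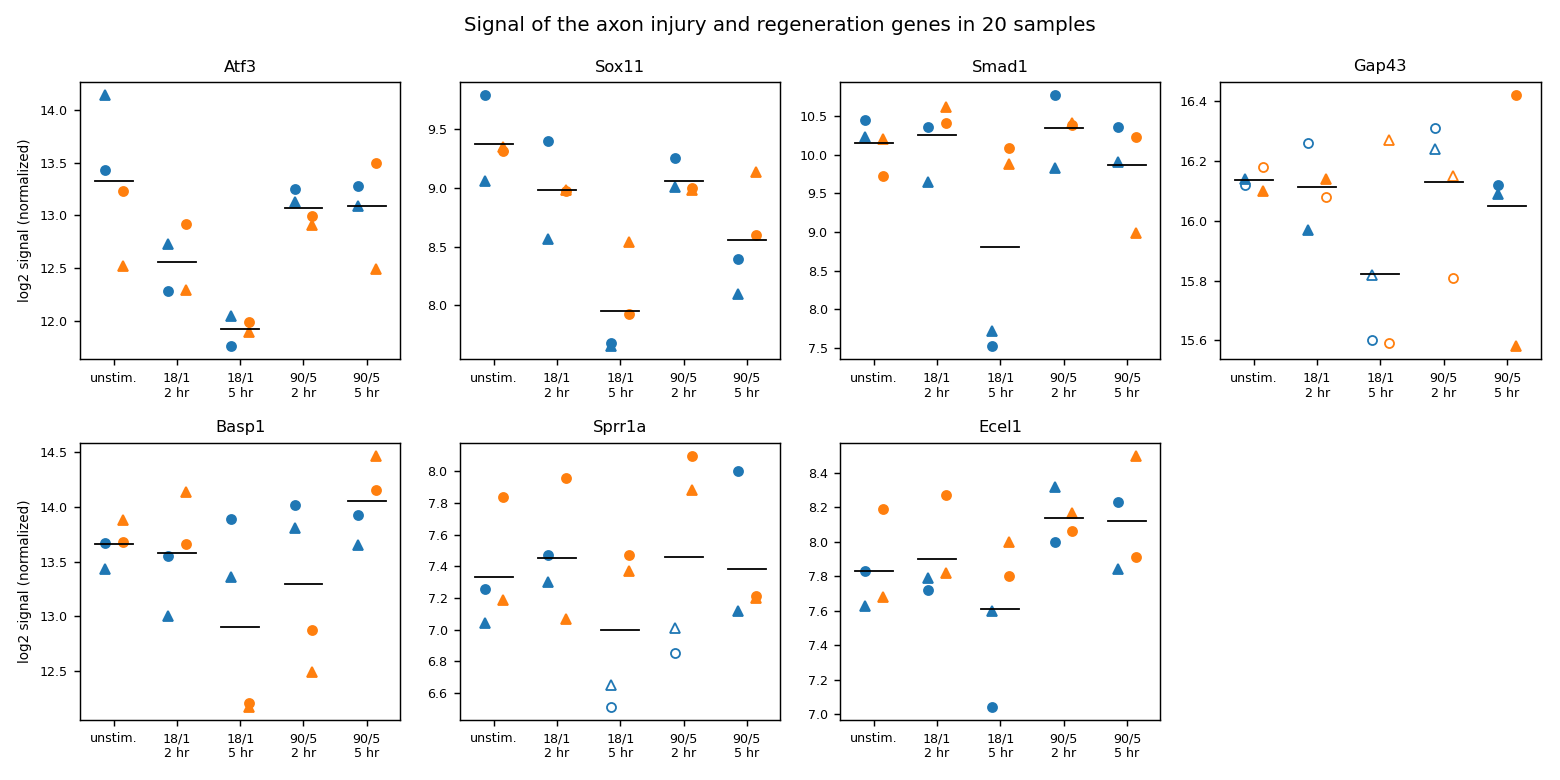
Normalized log2 signal of 7 genes in each of 20 samples. Triangles are Cy3 and circles Cy5, blue and orange are the arrays of a condition in order, and black lines are means of 4 samples. Open symbols are spots marked saturated or non-uniform, or not well above background. Each panel has its own scale. Atf3 lies between 11.76 and 12.05 at 18/1 5 hr, below all other samples, whereas Smad1 and Basp1 split by array there.

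Sox11, a SoxC transcription factor of immature and regenerating neurons, has 2 probes that did not give the same picture. The probe that passed the filter lies at chr12:28019541-28019600 (mm9). In unstimulated replicates 1 to 4 it read 9.06, 9.79, 9.35 and 9.31, and at 18/1 2 hr 8.56, 9.40, 8.98 and 8.97. Its readings at 18/1 5 hr were 7.65 and 7.68 on array 5 and 8.54 and 7.93 on array 6. These 4 samples lay below every unstimulated sample, and the highest of them lay 0.02 below the lowest at 18/1 2 hr. The values at 90/5 2 hr were 9.01, 9.25, 8.98 and 9.0, and at 90/5 5 hr they were 8.10, 8.39, 9.13 and 8.60 in replicates 1 to 4. The means ran from 9.38 ± 0.30 in unstimulated neurons over 9.06 ± 0.13 at 90/5 2 hr, 8.98 ± 0.34 at 18/1 2 hr and 8.55 ± 0.43 at 90/5 5 hr to 7.95 ± 0.41 at 18/1 5 hr (SD, n = 4), and each neighbour in this order overlapped the next.

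By that probe Sox11 fell by 1.43 on the log2 scale, 2.69-fold, at 18/1 5 hr against unstimulated neurons (SE 0.35, adjusted p = 0.00256), or -1.20 relative to the median of all genes. At 18/1 2 hr it was lower in 4 of 4 pairs of the same replicate number (-0.50, -0.39, -0.36 and -0.34), a change of -0.40 that was not called with that number as a block (adjusted p = 0.417, over a range of 0.0256 to 1). Sox11 also fell by 1.03 from 18/1 2 hr to 5 hr (adjusted p = 0.0211). The latter call was lost without 18/1 2 hr replicate 2 (-0.85, adjusted p = 0.0555), array 3 (-1.03, 0.082), array 4 (-1.03, 0.122) or array 5 (-0.74, 0.112), over a range of 0.0011 to 0.28. With 90/5 for 2 hr it was 1.11 higher than at 18/1 5 hr (adjusted p = 0.0406, with 4 of 4 samples above). Fitted within their shared slide alone, that difference kept its size with an adjusted p of 0.344. It held in 20 of 46 alternatives, whose p ran from 0.00194 to 0.762, adjusted except in the methods' test without adjustment. The samples and arrays whose removal ended it were unstimulated replicates 3 and 4, 18/1 2 hr replicates 3 and 4, both samples of array 5, the Cy5 sample of array 6, both samples of array 7, 90/5 5 hr replicate 4, and arrays 1, 2, 3, 4, 5, 7 and 10, with changes of 0.82 to 1.13 and adjusted p of 0.0504 to 0.227. The change of -0.82 at 90/5 5 hr from unstimulated neurons was not called (adjusted p = 1), with a 95% confidence interval that ended at -0.10.

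The other Sox11 probe, at chr12:28020087-28020146, was marked non-uniform in all 4 samples at 18/1 5 hr and so failed the filter. It read 8.72, 9.12, 8.92 and 9.05 in unstimulated neurons, then 8.58 and 8.59 on array 5 and 10.09 and 10.66 on array 6. Array 5 thus lay just below the unstimulated samples and array 6 above them, a split of 1.79. Where this probe stands for the gene, the change at 18/1 5 hr was 0.53 (adjusted p = 0.362), opposite in sign to the probe above. At 90/5 5 hr both probes were lower than in unstimulated neurons on average, by -0.52 and -0.82, and neither was called. The fall of Sox11 at 18/1 5 hr therefore rests on 1 of its 2 probes.

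Smad1, which carries bone morphogenetic protein signals to the nucleus, was read by 3 probes. The brightest, at chr8:81863015-81863074 (mm9), gave 10.23, 10.44, 10.20 and 9.72 in unstimulated neurons and 9.65, 10.36, 10.61 and 10.41 at 18/1 2 hr. The 18/1 5 hr samples gave 7.72 and 7.52 on array 5 but 9.88 and 10.09 on array 6. Array 5 lay below all other samples, and array 6 lay within the unstimulated range, 2.37 above array 5. Values at 90/5 2 hr were 9.82, 10.77, 10.41 and 10.38, and at 90/5 5 hr 9.90, 10.36, 8.99 and 10.22. The means were 10.34 ± 0.39 at 90/5 2 hr, 10.26 ± 0.42 at 18/1 2 hr, 10.15 ± 0.30 in unstimulated neurons, 9.87 ± 0.62 after 5 hr of 90/5 and 8.80 ± 1.37 after 5 hr of 18/1 (SD, n = 4), with overlap between all neighbours.

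The 18/1 5 hr mean was 1.35 lower than in unstimulated neurons as fitted, 2.54-fold (SE 0.53, adjusted p = 0.0432), or -1.12 relative to the median of all genes. It was 1.46 lower than at 18/1 2 hr (adjusted p = 0.0303). Without array 5 these differences were -0.16 (adjusted p = 0.776) and -0.27 (adjusted p = 0.624), and without array 6 they were -2.53 (7.42e-05) and -2.64 (4.88e-05). The first call held in 25 of 45 alternatives, with adjusted p from 7.42e-05 to 0.776, and the second in 32 of 45, with adjusted p from 4.88e-05 to 0.624. Besides array 5, the first was lost on leaving out unstimulated replicates 1, 2 or 3, 18/1 2 hr replicates 2 or 4, either sample of array 5, 90/5 5 hr replicate 4, or arrays 1, 2, 3, 4 or 9, with changes of -1.53 to -1.04. The second was lost without 18/1 2 hr replicates 2 or 3, either sample of array 5, or arrays 3 or 4, with changes of -1.71 to -1.15.

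The second Smad1 probe was dimmer and read 7.38 and 7.81 on array 5 and 7.04 and 7.04 on array 6, against 7.87 to 8.06 in unstimulated neurons. Here all 4 samples at 18/1 5 hr were below the unstimulated ones, but array 6 was the lower, and 3 of the 4 spots were marked non-uniform. In a fit of every probe its change was -0.63 (adjusted p = 0.0469). The third probe was not well above background in any sample outside array 6. The probes thus placed the lower values on different arrays.

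**Figure D3:**
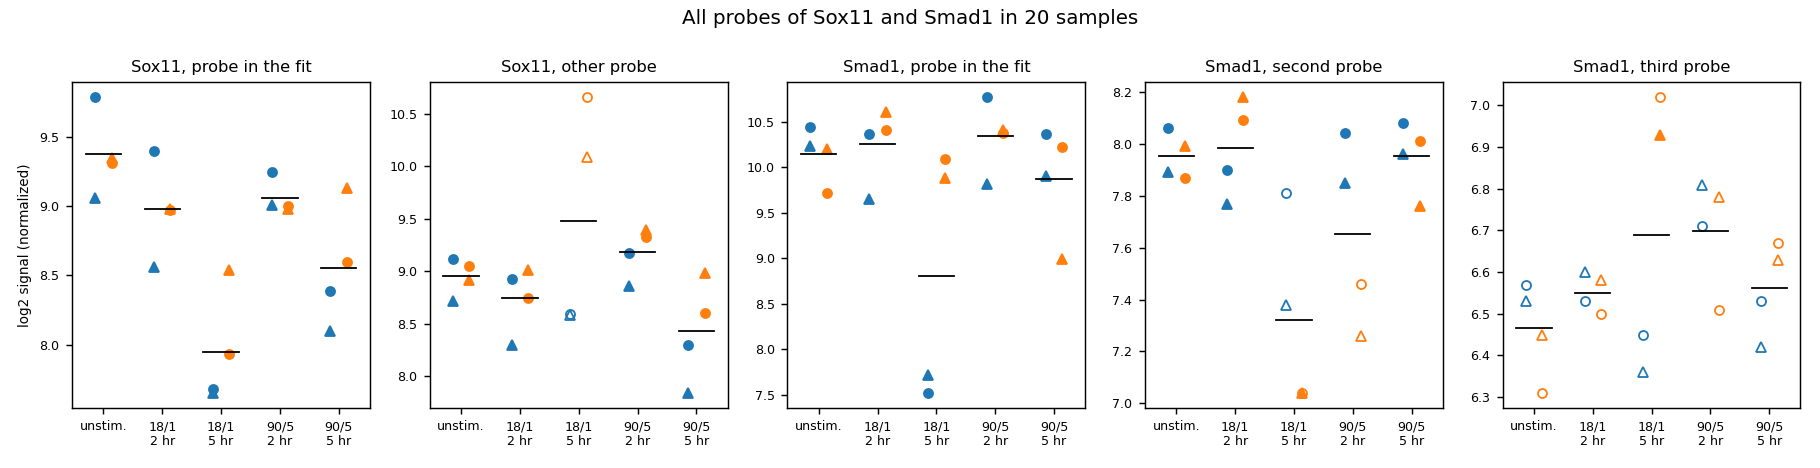
Normalized log2 signal of both Sox11 probes and the 3 Smad1 probes in 20 samples, with symbols as in the plot of the 7 genes. At 18/1 5 hr the other Sox11 probe reads 10.09 and 10.66 on array 6 (orange), and the Smad1 probe in the fit reads 7.72 and 7.52 on array 5 (blue).

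Gap43, a growth cone protein that binds calmodulin and is made in quantity by growing axons, was among the brightest spots of the array. Its spot was saturated in 12 of 20 samples, which were all of 18/1 5 hr and 90/5 2 hr and the Cy5 samples of slide 1. No change against those conditions is readable. The raw signal reached no more than 65527 on slides 1 and 2. On slide 3, where no spot was marked saturated, it ran from 31734 to 160332. The normalized level was 16.10 to 16.18 in unstimulated neurons, a range set by spots at the scanner's limit, and 15.58 to 16.42 at 90/5 5 hr.

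Basp1, a membrane protein of growth cones that like GAP-43 acts on the actin cytoskeleton, read 13.43, 13.67, 13.88 and 13.68 in unstimulated replicates 1 to 4 and 13.00, 13.55, 14.14 and 13.66 at 18/1 2 hr. After 5 hr of 18/1 it read 13.36 and 13.89 on array 5 and 12.17 and 12.21 on array 6. After 2 hr of 90/5 it read 13.81 and 14.02 on array 7 and 12.49 and 12.88 on array 8. Both conditions of the second slide therefore split by array, with arrays 6 and 8 below every other sample. At 90/5 5 hr the values were 13.65, 13.93, 14.47 and 14.16, the highest mean of the 5 conditions (14.05 ± 0.34, SD, n = 4). It was followed by 13.66 ± 0.18 in unstimulated neurons, 13.58 ± 0.47 at 18/1 2 hr, 13.30 ± 0.73 at 90/5 2 hr and 12.91 ± 0.86 at 18/1 5 hr, each overlapping the next.

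At 5 hr Basp1 was 1.15 higher with 90/5 than with 18/1 (SE 0.42, adjusted p = 0.0291, 0.92 relative to the median of all genes), although the samples overlapped. The difference was 0.43 without array 6 (adjusted p = 0.386) and 0.89 without array 10 (0.209). It was also not called without either sample of array 6 or 90/5 5 hr replicate 3 (1.01 to 1.05, adjusted p 0.0504 to 0.0585), and adjusted p ran from 0.00147 to 0.386 over all alternatives. Against unstimulated neurons the change at 18/1 5 hr was -0.76 (adjusted p = 0.146), and without array 5 it was -1.47 (adjusted p = 0.00789). For Smad1 and Basp1 the low array at 18/1 5 hr was thus not the same.

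Sprr1a, a small proline-rich protein of epidermis that sensory neurons switch on after axotomy, was near background, at 1.29 to 9.03 times. Its level was 7.04 to 7.84 in unstimulated neurons, 7.07 to 7.96 at 18/1 2 hr and 7.12 to 8.00 at 90/5 5 hr. After 5 hr of 18/1 it read 6.65 and 6.51 on array 5, where it was not well above background, and 7.37 and 7.47 on array 6. After 2 hr of 90/5 it read 7.01 and 6.85 on array 7, again not well above background, and 7.88 and 8.10 on array 8. In the fit that keeps genes passing within a condition, the change from unstimulated neurons was 0.12 after 2 hr and -0.33 after 5 hr of 18/1, and 0.13 after 2 hr and 0.05 after 5 hr of 90/5, none of them called. All 8 small proline-rich genes of the list are on the array, and 0 passed the filter.

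Ecel1, a membrane endopeptidase of the neprilysin family that injured neurons raise, was dim but well above background in all 20 samples, at 2.53 to 11.7 times. The unstimulated values were 7.63, 7.83, 7.68 and 8.19, and at 18/1 5 hr they were 7.60, 7.04, 8.00 and 7.80. The other conditions ranged from 7.72 to 8.27 at 18/1 2 hr, from 8.00 to 8.32 at 90/5 2 hr and from 7.84 to 8.50 at 90/5 5 hr. The means lay between 7.61 ± 0.41 at 18/1 5 hr and 8.14 ± 0.14 at 90/5 2 hr (SD, n = 4). The latter difference of 0.52 was not called (adjusted p = 0.264), although 3 of the 4 samples at 18/1 5 hr lay below all of 90/5 2 hr and the fourth matched its lowest. Ecel1 was called in 0 of the 10 comparisons by limma.

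Scaling bears on these changes. The median of all genes at 18/1 5 hr against unstimulated neurons was -0.23, and with each sample only centred on its median signal it was -0.81. Of the genes called there, 33.7% were higher, and 8.73% were with centring alone. For 90/5 against 18/1 at 5 hr the share was 65.2%, or 92.6% with centring, and for 90/5 2 hr against 18/1 5 hr it was 78.6%, or 99.6%. From 18/1 2 hr to 5 hr it was 34.8%, or 9.2%. Relative to those medians, the change at 18/1 5 hr against unstimulated neurons was -1.08 for Atf3, -0.89 for Sox11 and -1.04 for Smad1 with centring alone. Other differences shrank more by that measure: Basp1 for 90/5 against 18/1 at 5 hr from 0.92 to 0.53, Sox11 for 90/5 2 hr against 18/1 5 hr from 0.94 to 0.45, and Sox11 from 18/1 2 hr to 5 hr from -0.80 to -0.46. The signs were the same without background subtraction and with quantile normalization.

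Markers of other cells moved in the same comparison. Sums of markers are the log2 of their summed linear signals, so the brightest markers of a list weigh most. For the 6 fibroblast markers this was 14.08, 15.26, 15.04 and 15.45 in unstimulated replicates 1 to 4, and 16.03, 16.09, 16.23 and 16.20 at 18/1 5 hr. Of the 4 fibroblast markers tested, Col1a1 was called higher (1.79, adjusted p = 0.00801) and the median change was 1.02. Summed macrophage markers ranged from 14.38 to 14.93 in unstimulated neurons and from 13.40 to 14.87 at 18/1 5 hr, and of 3 tested C1qb was lower (-1.47). Summed endothelial markers ranged from 11.21 to 11.75 and from 9.39 to 9.89, with Pecam1 lower (-1.35), and summed keratinocyte markers from 9.49 to 9.73 and from 10.32 to 10.86, with Lor higher (1.57). Motor neuron and spinal cord markers summed to 9.94 to 10.15 and to 10.05 to 11.61. Among them Slc18a3 was lower (-1.12), whereas the means of Aqp4 (7.28 and 10.21) and Chat (6.97 and 8.15), which did not pass the filter, were higher at 18/1 5 hr. Schwann and satellite cell markers summed to 16.26 to 16.43 and to 15.64 to 16.71, with 0 of 2 called by limma. That sum is mostly S100b (mean 16.09 and 15.67), whose saturation was not counted, so it says little of the other markers. Mean Pmp22 was higher at 18/1 5 hr (12.50 and 13.93) and mean Mbp lower (12.32 and 11.89), and neither gene passed the filter. Sensory neuron markers summed to 18.52 to 18.67 and to 18.15 to 18.62, but no change can be read from these sums, because the spots of Prph and Nefl were each saturated in 12 of 20 samples, Uchl1 in 11 and Tubb3 in 8. The part of these shifts in the members' changes was not tested.

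Genes that work beside the members were counted from 9 lists, of which 77 genes could be tested. At 18/1 5 hr against unstimulated neurons 14 were higher and 11 lower, with a median of 0.05. This is 32.5% of the 77, below the 44.4% of all genes. Among 9 injury-response transcription factors 2 were higher, Cebpb (1.88) and Cebpd (1.23), and 3 lower, of which Stat3 the most (-1.69). Of 17 growth cone and cytoskeleton genes 1 was higher, the collapsin response mediator Dpysl5 (2.00), and 3 were lower, among them Marcksl1 (-2.65) and Marcks (-1.86). MARCKS and its relative bind actin and membranes much as BASP1 does. Of 17 secreted and surface molecules 3 were higher, among them Chl1 (2.04) and Anxa1 (1.97), and 2 lower, among them L1cam (-1.33).

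In arginine and polyamine metabolism, 11 genes were tested. At 18/1 5 hr 3 of them were higher, including spermine synthase Sms (3.35) and spermine oxidase Smox (1.48), and 2 lower, including spermidine synthase Srm (-1.34). Around Smad1, 9 genes of BMP and Smad signalling were tested, of which Id1 (1.68), a target of the pathway, and the receptor gene Bmpr1a (0.71) were higher and Acvr2a (-1.87) was lower. Around Atf3, 12 genes of the integrated stress response were tested, of which 3 were higher, including Xbp1 (1.28) and Trib3 (0.79), and 0 lower in limma. In limma 0 genes were called among the relatives of Sox11 in the SoxC family (1 tested) and those of Ecel1 among M13 endopeptidases (1 tested).

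The 77 genes gave about as many calls in 2 other comparisons, both with 18/1 5 hr, and fewer in the rest. For 90/5 against 18/1 at 5 hr, 12 were higher and 11 lower, and from 18/1 2 hr to 5 hr 13 were higher and 11 lower. These are 29.9% and 31.2% of the 77, against 45.4% and 44% of all genes. At 90/5 2 hr against unstimulated neurons, Sms (2.15), Dpysl5 (1.93), Id1 (1.65), Smox (1.32) and Cebpb (1.14) were higher, and Lifr (-2.03), Stat3 (-1.62), Klf6 (-1.13) and Nos2 (-1.02) lower, 11.7% of the 77 against 6.97% of all genes. For 90/5 against 18/1 at 2 hr the counts were 3 higher and 2 lower, for 90/5 5 hr against 2 hr 2 higher and 3 lower, and for 90/5 2 hr against 18/1 5 hr 4 higher and 5 lower. Their shares of the 77 were 6.49%, 6.49% and 11.7%, against 4.96%, 8.96% and 12.9% of all genes. At 18/1 2 hr and 90/5 5 hr against unstimulated neurons, and between them, limma called 0 of the 77.

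**Figure D4:**
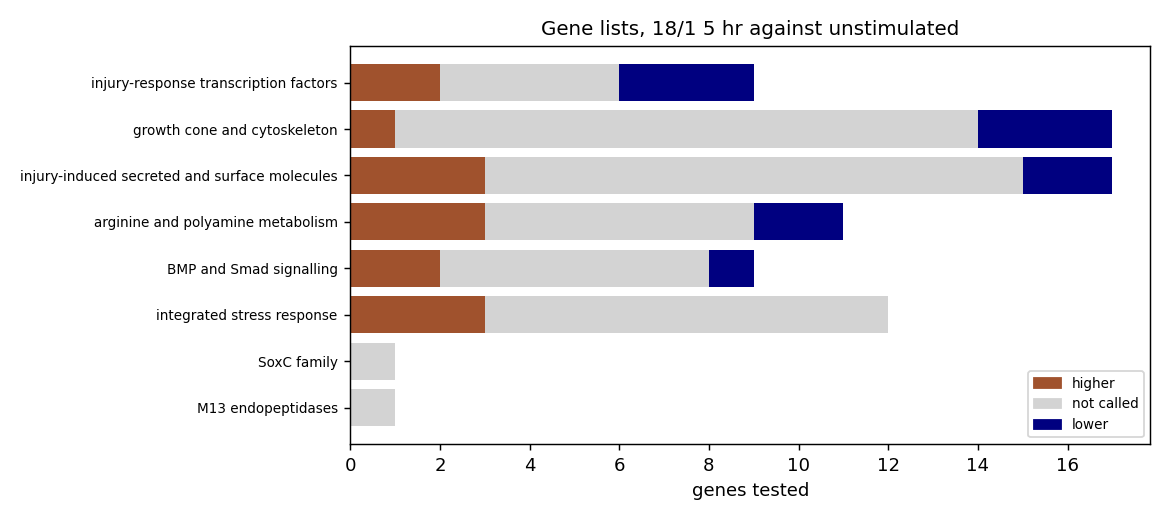
Number of genes called higher, called lower or not called at 18/1 5 hr against unstimulated neurons in the 8 lists with genes that passed the filter. Bars add up to the genes tested, from 1 to 17 per list. Calls in the injury-response transcription factors are 2 higher and 3 lower.

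Pearson's r between the 6 tested members over the 20 samples was positive in 14 of 15 pairs. It was 0.477 to 0.643 among Atf3, Sox11, Smad1 and Gap43, the latter with saturated spots. The value was highest for Sox11 with Smad1, at 0.643, and lowest for Smad1 with Basp1, at -0.0804. Atf3 correlated at 0.478 with Sox11 and at 0.515 with Smad1. These values describe samples that share arrays, slides and conditions. The genes most like Atf3 over the 20 samples were Ift172 (r = 0.87) and Ppme1 (0.821). Those most like Sox11 were A230051G13Rik (0.914), Chtf8 (0.901) and Ctr9 (0.88), and those most like Smad1 were Pik3cb (0.959), Vash2 (0.956) and Ccdc6 (0.956). Basp1 was closest to Lrrc16b (0.919), Palm (0.904) and Map2k2 (0.896), and Ecel1 to Tmc6 (0.857), Foxp1 (0.84) and 0610009L18Rik (0.807). Without the 4 samples at 18/1 5 hr, the r of the closest gene was 0.712 for Atf3, 0.8 for Sox11, 0.834 for Smad1, 0.836 for Basp1 and 0.741 for Ecel1. For Gap43 the spots were saturated too often for such a ranking to be read.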

How the data were processed

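Total RNA of 20 samples was read on 10 Agilent arrays. The authors deposited the intensity of each spot and of its local background in each colour, linear and not normalized (Feature Extraction 10.7.1.1 on slide 1 and 10.7.3.1 on slides 2 and 3, probe positions on mm9). A further 72 columns per array with values by colour were not used. The software was limma 3.58.1 for all fits, run under R 4.3.3, and data.table (version 1.17.8) to read the files; Python 3.11.15 searched the promoters and drew the figures (matplotlib 3.10.9). Background was corrected with normexp (offset 50), followed by loess within arrays, with control spots at weight 0, and Aquantile between arrays. Spots had to be at least 2 times their background and not marked non-uniform in all 20 samples. Each gene was represented by its brightest remaining probe. A second fit asked for this in all 4 samples of at least 1 condition, and the third fit used every such probe. limma fitted condition means, a colour term and a random effect of array across all genes, with Benjamini-Hochberg adjustment within each comparison. The test of the study's methods (unequal variances, linear values, minimum fold change 1.4) was run beside it without the other steps of those methods. Where a range of adjusted p over the alternatives is given, that test without adjustment entered with its unadjusted p. In simulated data with 200 of 10355 genes changed, the fit called 122 of them and 8 others.

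Pairing by replicate number was checked on the correlation, across genes, of deviations from the condition mean. For unstimulated and 18/1 2 hr, samples of the same number gave r of 0.41, 0.72, 0.46 and 0.64, the best match in 4 of 4, and shared a colour. For 90/5 5 hr the same number was not always the best match, and the fit used no pairing.

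The members and lists were chosen with earlier results of these data known. All 9 member names, every probe and every sample were to be named, and from each list at most the 3 largest called changes of each condition against unstimulated neurons, among genes whose samples do not overlap. Markers named with values, and genes in the observations, were picked after their values were seen. Likeness is Pearson's r over 20 samples, for the 3 closest genes. Some of the genes that these rules select are not reported here. The lists were injury-response transcription factors, growth cone and cytoskeleton, secreted and surface molecules, arginine and polyamine metabolism, BMP and Smad signalling, the integrated stress response, the SoxC family, M13 endopeptidases and small proline-rich proteins. Alternatives were: no background subtraction, quantile normalization, centring on medians, every probe, the filter applied within a condition, omitting it, dropping saturated probes, no colour term, no array block, array means, only the conditions compared, within a slide, slide 2 left out, array quality weights, a minimum fold change of 1.4, the methods' test with and without adjustment, a replicate block, and omitting every sample and every array in turn.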

Additional observations from a re-analysis of the deposited data

Results flagged for a closer look

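Among 55 groups of 4 values, formed by probe and condition, 2 had a sample far from the others, where chance gives about 1 in 20. Sprr1a at 90/5 5 hr read 8.00 in replicate 2, and the next value was 7.21. Sox11 at 90/5 2 hr read 9.25 in the Cy5 sample of array 7, and the next value was 9.01.

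The change under stimulation differed between times or patterns, by limma's test of the difference, in 5 cases. From 18/1 2 hr to 5 hr, Smad1 differed by -1.46 and Sox11 by -1.03. Sox11 was 1.11 higher at 90/5 2 hr than at 18/1 5 hr. At 5 hr, 90/5 exceeded 18/1 by 1.17 for Atf3 and by 1.15 for Basp1. The slide differs in all of these but the Sox11 difference of 1.11, and its part was not tested.

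The third Smad1 probe, outside the fit, gave signal at 18/1 5 hr that was well above background and above every unstimulated sample, at 2.74 and 6.4 times background in the Cy3 and Cy5 samples of array 6. The Cy5 spot was marked non-uniform.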

How the results depend on the processing

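Over 2738 alternative fits of a member's change, 2521 kept direction and side of the threshold, 81 lost a call, 46 gained 1, 84 changed sign without a call and 6 reversed. The reversed ones were all Sox11: with the filter within a condition and with no filter, its change was 0.53 at 18/1 5 hr against unstimulated neurons, 0.73 from 18/1 2 hr to 5 hr and -0.29 for 90/5 2 hr against 18/1 5 hr. Under both settings the other Sox11 probe stands for the gene.

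Member counts moved by more than 1.5 times as follows, and where the setting does not itself change which genes or samples enter, the cause was not tested. At 18/1 5 hr against unstimulated neurons (3 called), the count was 1 with the filter within a condition (Atf3), 1 with no filter, where Atf3, Sox11 and Smad1 were not called, and 1 by the methods' test with or without adjustment (Sox11). From 18/1 2 hr to 5 hr (2 called) it was 4 with centring on medians, 0 with the filter within a condition, 1 with array means, with the conditions compared alone and with the adjusted methods' test (Sox11), and 1 with no filter, where neither Sox11 nor Smad1 was called. For 90/5 against 18/1 at 5 hr (2 called) it was 5 with centring and with no array block, 0 with the adjusted methods' test, 1 with the filter within a condition, array means and the conditions compared alone (Atf3), and 1 with no filter, where neither Atf3 nor Basp1 was called. For 90/5 2 hr against 18/1 5 hr (1 called) it was 4 with centring, 3 with no array block and with the methods' test, 2 with no colour term, and 0 without background subtraction, with quantile normalization, the filter within a condition, no filter, array means, the conditions compared alone, within 1 slide and with the adjusted methods' test. With array quality weights 1 member, Sox11, was called at 18/1 2 hr and at 90/5 5 hr against unstimulated neurons and between them, where limma without weights called 0. Smaller moves or exchanges of members were these. At 18/1 5 hr against unstimulated neurons Smad1 was lost with array means and with the conditions compared alone (2 called), and Gap43 gained with centring (4 called). From 18/1 2 hr to 5 hr Atf3 was gained with no array block (3 called) and replaced Smad1 by the methods' test. With array quality weights, Smad1 replaced Basp1 for 90/5 against 18/1 at 5 hr (Smad1 1.79, Basp1 0.73) and replaced Sox11 for 90/5 2 hr against 18/1 5 hr (Smad1 1.92, Sox11 1.17). The methods' test called 1 member at 90/5 5 hr against unstimulated neurons (Sox11) and 1 for 90/5 against 18/1 at 2 hr (Atf3).

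With a block for replicate number, 1 member was called at 90/5 5 hr against unstimulated neurons, Sox11 (-0.82, adjusted p = 0.0352; over all alternatives 1.6e-05 to 1). The pairing is not borne out there: samples of the same number gave r of 0.48, 0.12, 0.08 and -0.05 with unstimulated neurons, and 0.65, 0.14, 0.29 and -0.03 with 18/1 2 hr.

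Leaving out each sample or array gave 1 to 3 members at 18/1 5 hr against unstimulated neurons, 0 to 2 from 18/1 2 hr to 5 hr, 0 to 4 for 90/5 against 18/1 at 5 hr, 0 to 3 for 90/5 2 hr against 18/1 5 hr, 0 to 1 from 90/5 2 hr to 5 hr and 0 to 0 in the other 5 comparisons. Where an array was left out, the remaining array is assumed to vary like the others. With centring on medians Gap43 was called at 18/1 5 hr (-1.94, adjusted p = 0.000228; 0.000228 to 0.638 over its alternatives), on saturated spots. Sprr1a, Ecel1 and the dimmer Smad1 probes are limited by signal close to background.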

Other observations

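Some markers of the cultures differed between 90/5 5 hr and other stimulated conditions, while limma called 0 of 22 markers at 90/5 5 hr against unstimulated neurons. Mean Col1a1 was 13.10 at 90/5 5 hr, 13.11 in unstimulated neurons and 14.90 at 18/1 5 hr. Slc18a3, the vesicular acetylcholine transporter, was 1.24 higher at 90/5 5 hr than at 90/5 2 hr (adjusted p = 0.00375) and 1.72 higher than at 18/1 5 hr (adjusted p = 3.06e-05). Between the patterns at 5 hr, the fibroblast genes Col1a1 (-1.81), Col3a1 (-1.22) and Dcn (-1.17) were lower with 90/5, as was the neuronal gene Elavl4 (-1.33).

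In the same comparison Ddit3, a stress-induced transcription factor, was 2.01 higher with 90/5 (adjusted p = 0.00396) and Atf5 was 1.08 higher (adjusted p = 0.00894), while Xbp1 was lower (-1.38), as were Trib3 (-1.15) and Chac1 (-1.08). Adcyap1, a neuropeptide gene that sensory neurons raise after axotomy, was 1.21 higher (adjusted p = 0.029). Slide and pattern cannot be told apart here.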
